A study of Mus musculus with 20 samples.

Results

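The enzymes that add glutamate chains to tubulin, and those that trim them, were followed as mRNA levels in whole brains of Katnal2-knockout (KO) and wild-type (WT) mice. The set held 10 genes, taken by their enzyme activity and without a cutoff on any measured value, of the 19463 genes in the deposited table: 5 ligases of the tubulin tyrosine ligase-like family (Ttll1, Ttll4, Ttll5, Ttll7 and Ttll11) and 5 cytosolic carboxypeptidases (Agtpbp1, Agbl2, Agbl3, Agbl4 and Agbl5). RNA-seq was performed on 20 male C57BL/6J mice in 4 groups of 5, namely WT and KO at 3 weeks (P21) and WT and KO at 10 weeks (P70). KO mice were homozygous, in every cell, for a Katnal2 allele with exon 3 removed. It was derived from a EUCOMM tm1a allele after Protamine-Flp mating and treatment of embryos with the cell-permeable Cre protein HTNC. The WT groups are given as wild-type mice of the same strain. The authors deposited DESeq2-normalized counts, which the paper describes as read counts divided by size factors. A factor for transcript length is not named there. A value is comparable between mice for 1 gene but not between genes.

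Polyglutamylation is the addition of glutamate side chains to the C-terminal tails of α- and β-tubulin, which line the outside of the microtubule. Ligases of the TTLL family start or extend the chains, and carboxypeptidases of the CCP family shorten them or remove the last, branching glutamate. In the brain the mark is abundant on neuronal and ciliary microtubules, and katanin and spastin, enzymes that sever microtubules, cut glutamylated microtubules preferentially. KATNAL2 belongs to the katanin family by its structure, and the paper states that direct severing by it has not been seen. The KO against WT comparison asks whether the mRNAs of the enzymes that write or erase this mark differ when KATNAL2 is lost.

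The 20 libraries held about 23300000 to 35800000 reads each, estimated from low values. P21 libraries (25900000 to 35800000) were mostly deeper than P70 libraries (23300000 to 27600000). Katnal2 itself was at 78.1 to 96.0 normalized counts in P21 KO and 99.3 to 115 in P21 WT mice, and at 95.1 to 126 in P70 KO and 101 to 142 in P70 WT mice. Its groups did not overlap at P21 and overlapped at P70, and its log2 fold changes of -0.27 and -0.21 were both at an adjusted p of 1. Counts over a whole gene from which 1 exon was removed check the labels only weakly.

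The 2 mice numbered replicate 5 at P70, 1 WT and 1 KO, stood apart from the rest of their groups. In them the 2264 genes with a longest coding transcript of 6 kb or more were shifted down against the 4562 genes under 2 kb, by a log2 difference of medians of -0.62 (WT) and -0.76 (KO), against -0.36 to 0.30 in the other 18 mice. The members followed in part. Ttll7, Agtpbp1 and Ttll4, with the longest transcripts of the 10 (7.39, 8.17 and 10.0 kb), were each the lowest of their group in both of these mice, and Ttll1, with the shortest (2.06 kb), was the highest. Ttll5, at 5.08 kb, went the other way from its length class and was 0.36 (WT) and 0.26 (KO) log2 units above the mean of the other 4 mice. Values without both replicate 5 mice are given beside the P70 results that turn on them.

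**Figure D1:**
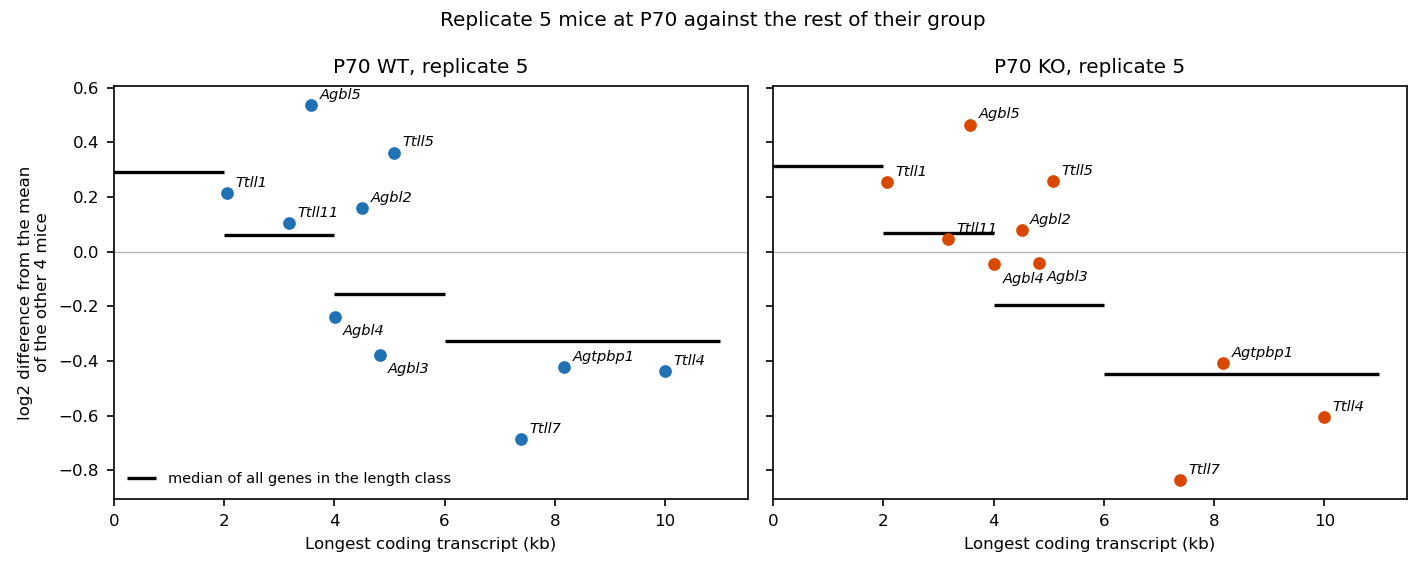
Log2 difference of each member in the replicate 5 mouse from the mean of the other 4 mice of its group at P70 (y axis) against the length of its longest coding transcript in kb (x axis), for WT (left) and KO (right); points are the 10 genes and horizontal lines the median over all genes of a length class. Ttll7, Agtpbp1 and Ttll4 lie between -0.41 and -0.84 in both mice, near or below the median of the longest class (-0.33 and -0.45), whereas Agbl5 lies at 0.54 and 0.46.

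All 10 genes were detected in every mouse and passed the filter on low values (a mean of 10 or more). Per kb of the longest coding transcript, the scale on which genes can be compared, Ttll7 was highest at a mean of 963 normalized counts per kb over the 20 mice (range 565 to 1082). This ligase acts mainly on β-tubulin and is known as a major glutamylase of neurons. Agtpbp1 (CCP1), the carboxypeptidase lost in the Purkinje cell degeneration mouse, came next at 629 (496 to 701), followed by Ttll1, the catalytic subunit of a multi-protein brain polyglutamylase, at 517 (461 to 589). Ttll5, which starts chains, was at 295 (227 to 358), and Ttll11, which extends them, at 247 (212 to 282). The ranges of neighbours in this order overlapped among the first 3 genes and between Ttll5 and Ttll11, and there was a gap between Ttll1 and Ttll5. Ttll7 overlapped Agtpbp1 only through both replicate 5 mice at P70, where Ttll7 was at 4735 (WT) and 4178 (KO) normalized counts.

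The other 5 genes were lower. Agbl5 (CCP5), the enzyme that removes the branching glutamate, was at 129 normalized counts per kb (103 to 169), and the chain-starting ligase Ttll4 at 89.3 (67.3 to 113). Agbl4 (CCP6), which shortens long chains, was at 67.4 (57.1 to 77.7). Among these 3 genes neighbours overlapped in range, while Agbl5 lay apart from Ttll11 above it, and Agbl3 (CCP3) at 38.5 (28.8 to 48.8) and Agbl2 (CCP2) at 16.5 (10.5 to 20.7), carboxypeptidases known from ciliated cells, lay below Agbl4 and apart from each other. The 5 carboxypeptidases made up 29.4% ± 1.13 (SD, n = 20) of the summed level per kb of the 10 genes, from 26.7% to 31.0% in single mice. By group this share was 29.3% ± 1.86 in P21 WT, 29.3% ± 1.03 in P21 KO, 29.3% ± 0.828 in P70 WT and 29.7% ± 0.839 in P70 KO mice (SD, n = 5 each), and without both replicate 5 mice 29.5% ± 0.841 in P70 WT and 29.6% ± 0.95 in P70 KO mice (SD, n = 4 each). The order depends on the length used: with the union of all exons, Ttll1 passed Agtpbp1, Ttll11 passed Ttll5 and Ttll4 passed Agbl5, and the carboxypeptidase share was 18.3%.

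**Figure D2:**
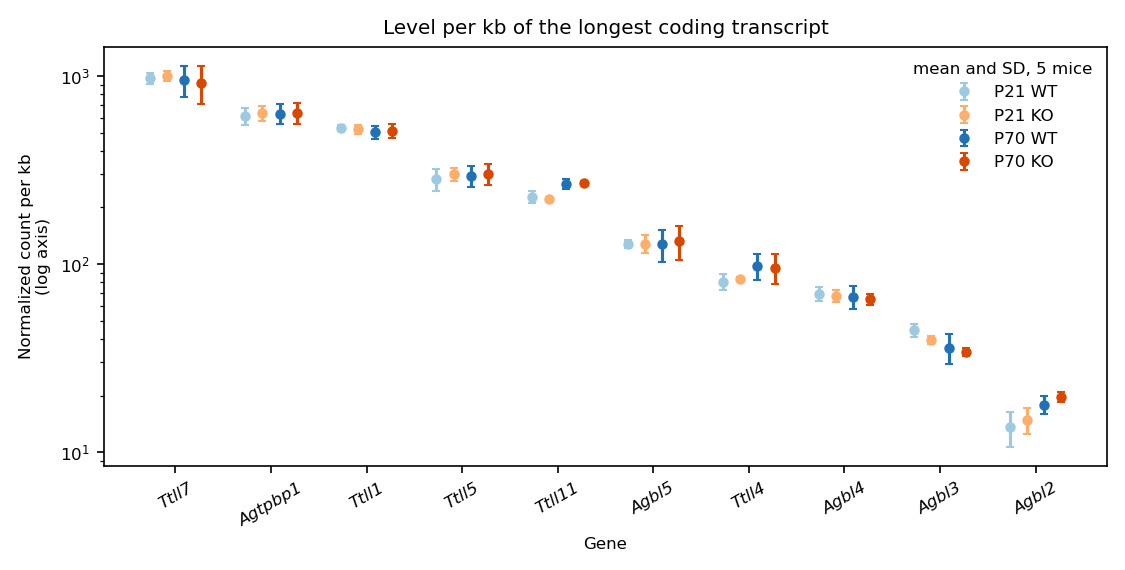
Normalized count per kb of the longest coding transcript (y axis, log scale) for the 10 genes ordered by their mean over all mice (x axis); points are group means and bars SD over 5 mice. The order runs from Ttll7 (963 over all mice) to Agbl2 (16.5), and the 4 groups of 1 gene lie close together.

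No member passed the test between KO and WT mice at either age. By limma with Benjamini-Hochberg adjustment over all genes, 0 of 10 members passed an adjusted p of 0.05 at P21, beside 0% of the 17610 genes tested, and 0 of 10 at P70, beside 0% of 17613. The paper reports small sets of genes that differed at both ages by DESeq2 with a fold-change cutoff. The 0% holds for limma on the normalized values, which missed part of the changes in simulated data. At an unadjusted p under 0.05 the members gave 0 of 10 at both ages, against 429 genes (2.44%) at P21 and 199 (1.13%) at P70. Genotype groups overlapped for all 10 members at both ages, and failed to overlap for 0.46% of genes at P21 and 0.193% at P70. Log2 fold changes of the members (KO minus WT) ran from -0.17 to 0.14 at P21 and from -0.07 to 0.14 at P70. Their 95% confidence intervals reached from -0.34 to 0.49 at P21 and from -0.47 to 0.40 at P70, so that over the 10 genes and both ages differences down to -27.8% or up to 40.7% were within the intervals. The median log2 fold change of the members was 0.02 at both ages, and that of all genes 0.0042 at P21 and -0.0047 at P70.

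Among the ligases, Ttll7 was at 7195 ± 518 (SD, n = 5) in P21 WT and 7431 ± 463 in P21 KO mice, and at 7041 ± 1318 in P70 WT and 6813 ± 1537 in P70 KO mice. Its log2 fold changes were 0.05 (SE 0.06) and -0.06 (SE 0.19), and the wider error at P70 came with 1 low mouse in each genotype, at 4735 (WT) and 4178 (KO). The difference at P70 was -0.03 (SE 0.05) without both replicate 5 mice. Ttll1 was at 1090 ± 34.2 in P21 WT and 1073 ± 61.6 in P21 KO mice, with log2 fold changes of -0.02 (SE 0.05) at P21 and 0.02 (SE 0.08) at P70. For Ttll5 the P21 values were 1439 ± 194 (WT) and 1525 ± 123 (KO), a log2 fold change of 0.09 (SE 0.09), and at P70 it was 0.03 (SE 0.11). For the other ligases, Ttll4 and Ttll11, the log2 fold changes were 0.05 and -0.04 at P21 and -0.04 and 0.02 at P70.

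Agbl3 lay closest to a genotype difference. At P21 its values were 195, 200, 230, 235 and 214 in WT and 178, 191, 190, 191 and 202 in KO mice. The KO mice were lower on average and the groups overlapped, since the highest KO mouse lay above the lowest WT mice. The log2 fold change was -0.17 (SE 0.08), with an unadjusted limma p of 0.0506 and an adjusted p of 1. The unadjusted exact two-sided permutation p was 0.0238, the lowest of any member for genotype at either age. At P70 the log2 fold change was -0.07 (SE 0.13, adjusted p 1), and -0.13 (SE 0.12) without both replicate 5 mice. Agbl2, the least abundant member, differed by 0.14 at both ages (SE 0.16 at P21 and 0.12 at P70). Agtpbp1, Agbl4 and Agbl5 had differences between -0.04 and 0.05 at both ages.

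No marker gene of the 12 cell type lists passed the test between genotypes, though the signs within several lists ran 1 way. Of 10 ependymal cilia genes, 10 were higher in KO at P21 and 9 at P70 in sign, and of 8 choroid plexus genes 8 were higher at both ages. At P21 the immature neuron (6 genes), endothelium (4) and blood (4) markers were all lower in KO in sign and the 4 cerebellum markers all higher. At P70 the microglia (5), endothelium (4) and blood (4) markers were all higher, and the 4 oligodendrocyte precursor and 4 cerebellum markers all lower. The 3 pituitary markers were higher at both ages, and 2 of them were at 0 in at least 1 mouse. Summed ependymal markers ran from 821 to 1009 in P21 WT, 954 to 1331 in P21 KO, 852 to 1428 in P70 WT and 1067 to 1436 in P70 KO mice. No ependymal or choroid plexus marker was at 0 in any mouse. Their part in the values of Agbl2 and Agbl3 was not tested, and in whole brain fewer cells of a type cannot be told apart from less RNA per cell.

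**Figure D3:**
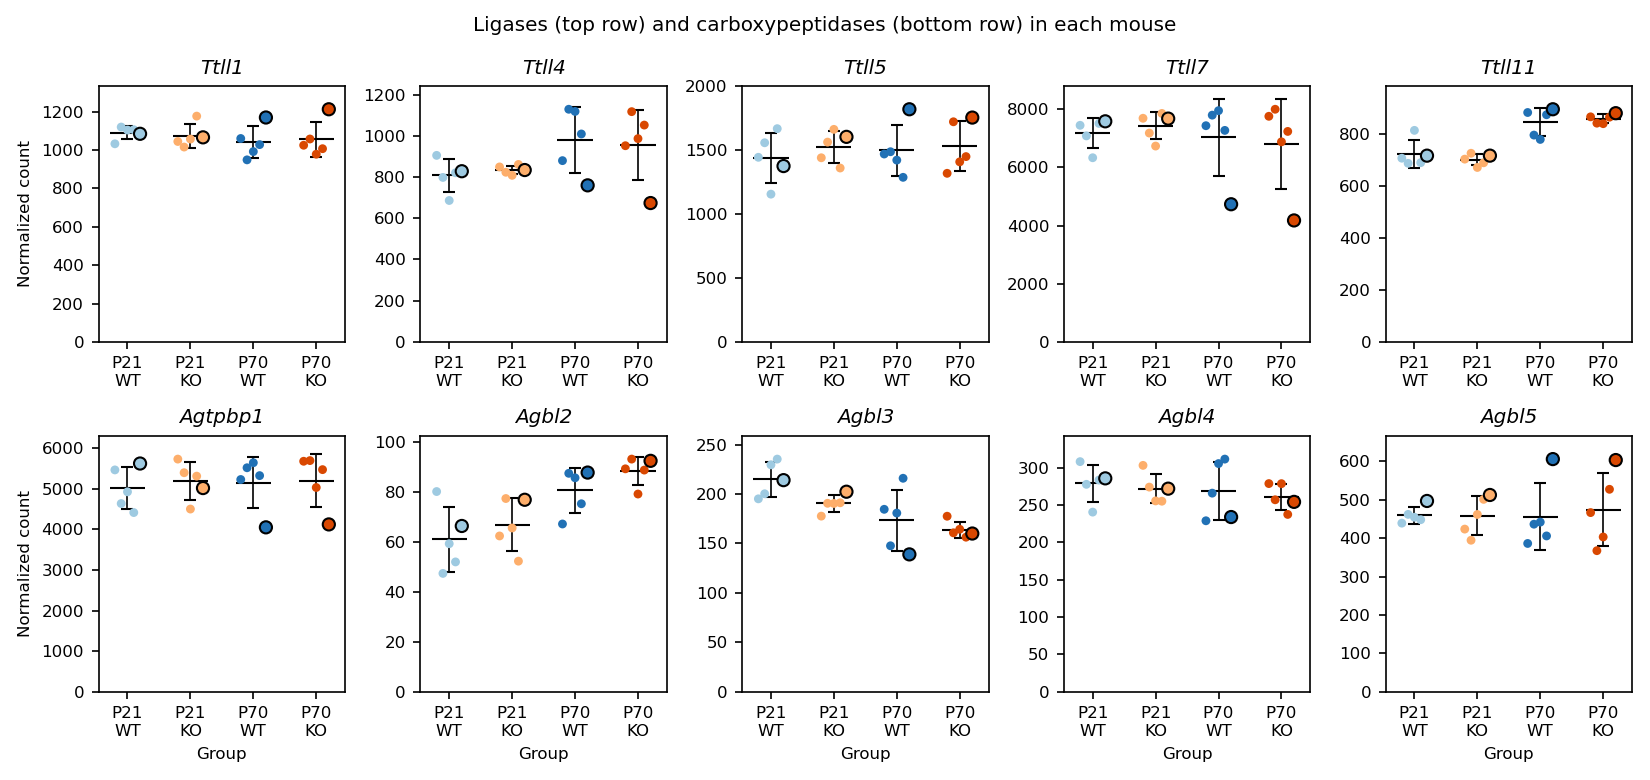
Normalized counts (y axis, from 0) of the 5 ligases (top) and 5 carboxypeptidases (bottom) in each mouse, by group (x axis); points are mice, ringed points replicate 5, bars the mean ± SD over 5 mice. Ttll11 is higher at P70 (781 to 897) than at P21 (672 to 815), Agbl3 is lower on average, and ringed P70 mice stand low for Ttll7, Agtpbp1 and Ttll4.

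The 10 genes were next compared between P21 and P70. In WT mice 2 of 10 members passed the test between P21 and P70, Ttll11 upward and Agbl3 downward, beside 11.1% of 17637 genes (5.53% higher and 5.62% lower at P70). In KO mice 1 of 10 passed, Ttll11 upward, beside 11.9% of genes (5.47% higher and 6.4% lower). Groups that did not overlap were found for 0 of 10 members in WT, against 10.8% of genes, and for 3 of 10 in KO mice (Ttll11, Agbl2 and Agbl3), against 10.9%. Without both replicate 5 mice these counts were 0 of 10, against 17.9%, and 4 of 10 with Ttll4, against 20.7%. The median log2 difference of the members was 0.0016 in WT and -0.0021 in KO mice, and that of all genes 0.0013 and -0.0104. Age cannot be told apart from anything else that differed between the libraries of the 2 ages, depth included.

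Ttll11, on the minus strand of chr2:35751241-35979913 (GRCm38), rose in both genotypes. It extends glutamate chains that other ligases have started. In WT mice its values were 708, 688, 815, 691 and 718 at P21 and 884, 797, 781, 876 and 897 at P70. The P21 mouse at 815 overlapped the 2 lowest P70 mice. In KO mice they were 704, 727, 672, 690 and 718 at P21 and 868, 843, 841, 866 and 882 at P70, with no overlap. The log2 difference was 0.23 in WT (SE 0.06, 95% CI 0.10 to 0.35, adjusted p 0.0167) and 0.29 in KO mice (SE 0.06, 95% CI 0.17 to 0.42, adjusted p 0.00248), or 17.0% and 22.4%. By unadjusted exact two-sided permutation p was 0.0238 in WT and 0.00794 in KO mice. The latter is the smallest that 5 against 5 allows, and every gene without overlap reaches it. Without both replicate 5 mice the rise was 0.20 (adjusted p 0.0141) and 0.28 (adjusted p 0.0012). The WT call was lost when WT mice were fitted alone (adjusted p 0.0796) and without P21 WT replicate 4 (adjusted p 0.0514).

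Agbl3, on the plus strand of chr6:34780432-34859459, was lower at P70, and its call was fragile. At P70 its values were 184, 148, 181, 216 and 139 in WT and 178, 161, 164, 156 and 160 in KO mice, against the P21 values given above. In WT mice 1 P70 value (216) lay within the P21 range and the others below it, and in KO mice the highest P70 value (178) lay just under the lowest at P21. Log2 differences were -0.32 in WT (SE 0.10, adjusted p 0.0471) and -0.22 in KO mice (SE 0.10, adjusted p 0.195), or -19.9% and -13.9%. The unadjusted exact two-sided permutation p was 0.0397 in WT and 0.00794 in KO mice, the latter reached by every gene without overlap. Of the 20 fits that each left out 1 mouse, the WT call was lost in 17 and kept without P21 WT replicate 1, P70 WT replicate 4 or P70 KO replicate 5. The WT difference was -0.25 (adjusted p 0.0776) without both replicate 5 mice.

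Agbl2, on the plus strand of chr2:90782727-90834437, had the widest age difference of the 10 and missed the threshold in both genotypes. Values in WT mice were 80.2, 47.4, 59.3, 52.0 and 66.4 at P21 and 67.2, 87.5, 85.7, 75.3 and 87.8 at P70. Those in KO mice were 62.4, 77.4, 65.6, 52.3 and 76.9 at P21 and 89.3, 93.2, 79.2, 88.8 and 92.5 at P70. The P70 mice were mostly above, with overlap in WT through 1 P21 mouse at 80.2 and no overlap in KO. The log2 differences were 0.41 (SE 0.14) in both, with adjusted p of 0.0647 in WT and 0.0643 in KO mice. By unadjusted exact two-sided permutation p was 0.0317 in WT and 0.00794 in KO mice. The KO value is reached by every gene whose groups do not overlap, 10.9% of genes. Limma without the trend put both just under the threshold (adjusted p 0.0474 in each). So did centring each mouse on its median (adjusted p 0.0483 in WT and 0.0428 in KO). Leaving out the single P21 WT replicate 1 mouse brought both under the threshold (adjusted p 0.0217 and 0.0468), as did leaving out P70 WT replicate 1 for the WT difference (adjusted p 0.0478). In the absence of both replicate 5 mice the differences were 0.38 (adjusted p 0.0858) and 0.40 (adjusted p 0.0722).

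Ttll4, on the plus strand of chr1:74661745-74703730, turned on the replicate 5 mice. This ligase starts chains, with a preference for β-tubulin. Its values were 905, 798, 686, 821 and 828 in P21 WT and 880, 1129, 1119, 1009 and 760 in P70 WT mice, and 849, 823, 808, 861 and 834 in P21 KO and 952, 1118, 987, 1052 and 674 in P70 KO mice. In both genotypes replicate 5 was the lowest P70 mouse, and in KO the other 4 lay above every P21 mouse. With all mice the log2 differences were 0.27 (SE 0.12, adjusted p 0.17) in WT and 0.17 (SE 0.12, adjusted p 0.403) in KO mice. Without both replicate 5 mice they were 0.35 (SE 0.08, adjusted p 0.00285) and 0.30 (SE 0.08, adjusted p 0.00961), beside 21.1% and 22% of genes called in the same fits. Leaving out only P70 KO replicate 5 brought the KO difference to 0.30 (adjusted p 0.0486). Removing a trend on transcript length from each mouse, an alternative added after these values were seen, gave 0.23 (adjusted p 0.0185) and 0.19 (adjusted p 0.0465), beside 15.4% and 15.7% of genes.

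Age differences of the other 6 members were between -0.16 and 0.06, with adjusted p of 0.561 or more. Ttll7 in KO mice had the lowest, -0.16 (SE 0.15), which was 0.01 (SE 0.06) without both replicate 5 mice. Agbl5 was at 460 ± 22.2 in P21 WT and 455 ± 87.3 in P70 WT mice, and 1 P70 WT mouse reached 606. This gene shares 677 bp of exon, 9.6% of its exon bases, with Ost4 on the opposite strand, and the library kit does not mark strand, so that reads of the 2 genes there cannot be told apart. Agbl4 was at 279 ± 24.5 and 269 ± 38.7 in P21 and P70 WT mice. For Ttll1, Ttll5 and Agtpbp1 the differences with all mice were at most 0.07 in size in either genotype. Without both replicate 5 mice the WT differences were -0.11 for Ttll1 (adjusted p 0.118), 0.12 for Agtpbp1 (0.25) and -0.14 for Agbl5 (0.323). Those in KO mice were -0.07 (adjusted p 0.313), 0.08 (0.479) and -0.06 (0.692).

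Whether the age difference itself depended on genotype was tested as an interaction, and 0 of 10 members passed, beside 0% of 17637 genes. At an unadjusted p under 0.05 there were 0 of 10 members and 296 genes (1.68%). The interaction was 0.07 (SE 0.08) for Ttll11 and 0.10 (SE 0.14) for Agbl3, so the call of Agbl3 in WT and not in KO mice is no evidence of a difference between genotypes.

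**Figure D4:**
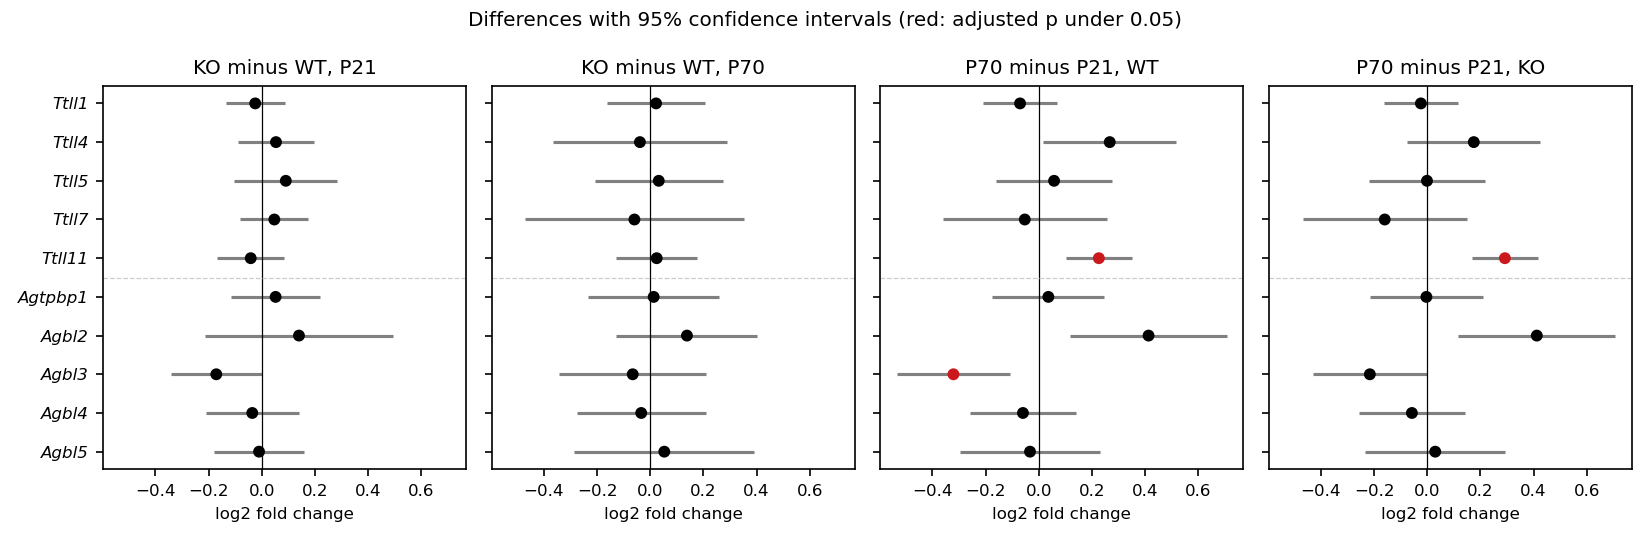
Log2 fold change (x axis) of each member (y axis, ligases above the dashed line) for KO minus WT at P21 and P70 and for P70 minus P21 in WT and KO mice; points are limma estimates, lines 95% confidence intervals, red an adjusted p under 0.05. Red points are Ttll11 in both age comparisons (0.23 and 0.29) and Agbl3 in WT (-0.32), and none is red between genotypes.

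Cell type markers also moved with age in these brains. Mature oligodendrocyte markers fell in 7 of 7 genes in both genotypes, from a summed 369700 to 417800 in P21 WT to 155800 to 177400 in P70 WT mice. Oligodendrocyte precursor markers fell in 3 of 4 and immature neuron markers in 3 of 6 genes in both genotypes, and blood markers in 4 of 4. Neuron markers rose in 1 and fell in 1 of 8 genes in WT mice, and rose in 2 and fell in 2 in KO mice, with WT sums of 151700 to 155600 at P21 and 153300 to 166100 at P70. Choroid plexus markers rose in 2 of 8 genes in WT and 1 of 8 in KO mice, and ependymal markers gave 0 of 10 calls in both. Mature oligodendrocyte and blood markers fell in 7 of 7 and 4 of 4 genes, and precursors in 4 of 4, in both genotypes also without both replicate 5 mice. The part of these cell types in the differences of Ttll11 and Agbl3 was not tested.

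Genes of the surrounding pathway were taken from lists of 35 genes that are no members, of which 32 were tested. Between KO and WT mice 0 of 32 passed at either age. With age 5 of 32 passed in each genotype, 2 up and 3 down in WT and 1 up and 4 down in KO mice (15.6% each, beside 11.1% and 11.9% of all genes). Without both replicate 5 mice 8 passed in WT (25%, beside 21.1%) and 7 in KO mice (21.9%, beside 22%). Of the glycylases, which add glycine to the same tubulin tails, Ttll3 rose by 0.56 in WT (SE 0.13, adjusted p 0.00824) and 0.67 in KO mice (SE 0.13, adjusted p 0.00203). Of the genes acting on the terminal tyrosine of α-tubulin, the tyrosine-removing enzymes Vash1 (-0.30 in WT and -0.41 in KO) and Vash2 (-0.54 and -0.49) fell in both genotypes. The deacetylase Sirt2, also abundant in myelin, fell by 0.98 in WT and 1.01 in KO mice, on the log2 scale. The severing enzyme Katna1 rose in WT (0.24, adjusted p 0.0499), with 0.08 in KO mice (adjusted p 0.6). The acetyltransferase Atat1 fell in KO mice (-0.20, adjusted p 0.035), with -0.15 in WT (adjusted p 0.126). Neither passed for the interaction of age with genotype (-0.17, SE 0.11, for Katna1 and -0.05, SE 0.08, for Atat1). Added without both replicate 5 mice were Atat1 in WT (-0.17, adjusted p 0.0251), and in both genotypes the severing enzyme Katnal1 (0.25 in WT and 0.24 in KO, adjusted p 0.016 and 0.0196) and the ciliary protein Togaram1 (0.19 and 0.25, adjusted p 0.0486 and 0.00772). None of the 5 partners of the TTLL1 complex (Tpgs1, Tpgs2, Lrrc49, Nicn1 and Cstpp1) and none of 3 other chain enzymes tested (Ttll6, Ttll9 and Ttll13) passed for genotype at either age or for age in either genotype.

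The genes whose pattern over the 20 mice was most like that of Ttll11 were Nsun2, Cbx7 and Snap25, at a root mean square difference of standardised log2 values of 0.373 to 0.379, against a median of 1.4 over all genes. Their group means were higher at P70 too, for Snap25 52700 in P21 WT and 62700 in P70 WT mice. For Agbl3 the most alike were Ankra2, Syt16 and Rrm2, at 0.464 to 0.508, against a median of 1.37. The age groups are shared by every gene compared, so these are descriptions of pattern.

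Promoters, as the 250 bases before the annotated start in RefSeq (GRCm38.p6), were at hand for 8 of the 10 members, not for Ttll1 or Ttll11. Those of Agbl3, Agbl2 and Ttll4 are shown because these genes had the lowest and highest age differences, or one that turned on 2 mice. They lie at chr6:34780182-34780431, chr2:90782477-90782726 and chr1:74661452-74661701, each on the plus strand, and read 5′ to 3′ with motif matches in capitals.
Agbl3: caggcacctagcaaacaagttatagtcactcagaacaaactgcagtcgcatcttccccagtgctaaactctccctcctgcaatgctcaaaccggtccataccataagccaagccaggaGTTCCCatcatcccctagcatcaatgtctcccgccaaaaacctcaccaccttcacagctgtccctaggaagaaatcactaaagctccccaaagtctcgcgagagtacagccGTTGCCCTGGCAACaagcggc
Agbl2: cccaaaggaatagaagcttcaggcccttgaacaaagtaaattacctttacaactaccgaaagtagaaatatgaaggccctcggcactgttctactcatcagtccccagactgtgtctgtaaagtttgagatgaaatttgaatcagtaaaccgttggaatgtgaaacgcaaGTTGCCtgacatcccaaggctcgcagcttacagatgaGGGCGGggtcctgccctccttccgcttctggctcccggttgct
Ttll4: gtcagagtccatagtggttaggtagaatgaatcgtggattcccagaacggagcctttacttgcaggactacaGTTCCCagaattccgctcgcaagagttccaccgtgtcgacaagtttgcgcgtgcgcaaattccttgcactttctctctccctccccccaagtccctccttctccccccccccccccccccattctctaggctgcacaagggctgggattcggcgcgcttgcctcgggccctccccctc
The motifs searched on both strands were the GC box GGGCGG, the CCAAT box CCAAT, the TATA box TATAAA, the X-box arm GTTNCC and the pair of arms GTTNCCNNGGNAAC. The X-box is the site bound by RFX factors, known from genes of cilia. Agbl3 was the only one of the 8 members with the pair, which lay 7 bases before the start and is made of 2 of its 3 arms, and 0.375% of 32807 promoters of the same length hold it. Agbl2 held 1 arm and 1 GC box, and Ttll4 1 arm, a match found in 39.4% of promoters (GC box, 32.7%). No TATA box match was found in any of the 8, against 12.4% of all promoters. A match of letters is a description and not a measured binding site.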

How the data were processed

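RNA from whole brains of 20 male mice (4 groups of 5) was sequenced by the authors after poly-A selection with an unstranded kit. According to their methods and processing notes, reads were quantified with Salmon 1.1.0 on GRCm38 with GC-bias correction, and summarised to genes. The authors then scaled the gene counts in DESeq2, and the scaled values make up the deposited signal table. For this the labels of the authors name R 3.6.2 and DESeq2 1.26.0, and their methods name other versions. Whole reads could not be recovered, so no count test was run.

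Values were tested as log2(value + 1) with limma 3.58.1 (R 4.3.3, trended variance) on genes with a mean of 10 or more, with Benjamini-Hochberg adjustment over all genes and a threshold of 0.05. Fold changes on this scale understate the change of low genes. Genotype was fitted within each age on 10 mice, and age and its interaction with genotype on all 20. Single genes were also tested by exact two-sided permutation, without adjustment. Lengths and positions came from GENCODE M21 (GRCm38), which matched 19447 of 19463 genes. Depth was estimated as the sum of values of a mouse divided by its value of 1 read. For genotype at P21 the least abundant member, Agbl2, had the largest SE (0.16). At P70 Ttll7 had the largest (0.19, against 0.12 for Agbl2). The value of 1 read was the densest point among values between 0.65 and 1.35, of which a mouse had 9 to 132.

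The members were taken by enzyme activity, with no measured value in the rule, but they, the pathway lists and the marker lists were all chosen with earlier results of these data known. All members are named, and of the pathway lists the genes past the threshold, up to 4 per list. The test was tried on simulated data with 200 genes changed. For KO against WT it recovered 65% of 1.5-fold changes at P21 and 40.5% at P70. With 2-fold changes it recovered 83.5% and 73%. Alternatives covered pseudocounts of 0.5 and 10, other filters, quantile and median scaling, limma without the trend, single-genotype fits, a replicate block, leaving out mice, and a length trend removed. The labels call the replicates separate mice.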

Additional observations from a re-analysis of the deposited data

Results flagged for a closer look

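In 4 of the 40 groups of 5 mice formed by the 10 genes and 4 groups, 1 mouse lay so far from the others that its gap, divided by the range of the group, passed the 95% critical value of Dixon's test (0.71). Chance flags about 1 in 20 groups. For 3 of the 4 the mouse was P70 WT replicate 5. It was the lowest of its group for Ttll7 at 4734.8 normalized counts (ratio 0.789) and for Agtpbp1 at 4050.2 (ratio 0.740), and the highest for Agbl5 at 606.0 (ratio 0.747). The same mouse was low over all genes with long transcripts. Its KO counterpart, P70 KO replicate 5, was in the same position for all 3 genes, at 4178, 4122 and 604, without passing the critical value.

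The other was P21 WT replicate 3, the highest of its group for Ttll11 at 815.4 (ratio 0.768). This mouse was the lowest of the P21 WT group for Ttll4, Ttll5, Ttll7 and Agbl4. Over all genes its median log2 difference from the other mice of its group was 0.16 for transcripts under 2 kb. For those of 6 kb and over it was -0.20. The part of this shift in the member values was not tested.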

How the results depend on the processing

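Over the 42 member comparisons, 486 values were computed under other settings; 453 kept their direction and side of the threshold, 8 lost the threshold, 13 crossed it and 12 reversed, counting exact tests as unadjusted and leaving out fits without 1 mouse. Depth is lowest for Agbl2, at 47.4 to 93.2 normalized counts. Its intervals were wide, but the widest of the members only for KO against WT at P21. The cause of each change below was not tested.

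Without both replicate 5 mice at P70, 1 gene passed between KO and WT at P70 (Gm28438), 3731 genes passed with age in WT and 3879 in KO mice, and 2 members passed in KO. KO mice also gave 2 members by limma without the trend, after centring each mouse on its median and after removing the length trend. WT mice gave 1 member without a filter on low values and 0 when fitted alone. Under other settings the members called in WT changed. Quantile normalization lost Agbl3 (adjusted p 0.0633) and added Agbl2 (0.0484), as did centring on the median (0.069 and 0.0483). Without both replicate 5 mice Agbl3 was lost (0.0776) and Ttll4 added (0.00285), and limma without the trend added Agbl2 (0.0474). Reversed log2 differences were all small. Without both replicate 5 mice they were, with age in WT, -0.0151 (Ttll5) and 0.0844 (Ttll7), and in KO 0.0077 (Ttll7), 0.078 (Agtpbp1) and -0.063 (Agbl5). With the length trend removed they were 0.0123 (Ttll4, KO minus WT at P70), and with age in KO 0.0193 (Ttll5) and 0.0157 (Agtpbp1). Age in KO also gave 0.0007 for Ttll5 after quantile normalization, and 0.0055 (Ttll1), 0.0284 (Ttll5) and 0.0262 (Agtpbp1) after centring on the median. The carboxypeptidase share was 18.3% by the union of exons.

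Leaving out 1 mouse at a time, genes called between genotypes at P21 ran from 0 to 1 (1 without P21 KO replicate 4 or P21 WT replicate 3), members called with age from 0 to 3 in WT and from 1 to 2 in KO. Ranges of log2 differences that crossed 0 were, for KO minus WT at P21, Agbl4 -0.088 to 0.001, Agbl5 -0.0518 to 0.0423, Ttll11 -0.059 to 0.002 and Ttll4 -0.0037 to 0.0961; at P70, Agbl3 -0.1413 to 0.017, Agbl4 -0.0892 to 0.0216, Agbl5 -0.0403 to 0.1604, Agtpbp1 -0.0716 to 0.094, Ttll1 -0.029 to 0.0652, Ttll11 -0.0046 to 0.0454, Ttll4 -0.1263 to 0.082, Ttll5 -0.0202 to 0.1046 and Ttll7 -0.1966 to 0.1076. With age they were, in WT, Agbl5 -0.1405 to 0.0216, Agtpbp1 -0.0081 to 0.1205, Ttll5 -0.019 to 0.1133 and Ttll7 -0.1027 to 0.0844, and in KO, Agbl5 -0.063 to 0.1156, Agtpbp1 -0.0535 to 0.078, Ttll1 -0.0748 to 0.0101, Ttll5 -0.0526 to 0.0504 and Ttll7 -0.2267 to 0.0077.

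The labels do not say that a replicate number marks a shared litter or day, and the rule for pairing, every same-numbered pair correlated over 0.1, was not met. Correlations of deviations between same-numbered mice ran from -0.009 to 0.260 at P21, from 0.075 to 0.705 at P70, and from -0.119 to 0.160 across ages. At P70 4 of 5 pairs were over 0.1 and 7 of 10 mice correlated best with their own number, against 2 of 5 and 5 of 10 at P21. With the replicate number as a block, 0 members passed with age in WT (adjusted p 0.0736 for Ttll11 and 0.0702 for Agbl3) and 1 in KO (Ttll11, 0.0245), 1529 and 1558 genes passed, and 0 genes passed for genotype at either age or for the interaction. For KO against WT at P70 the block took the SE of Ttll7 from 0.19 to 0.05 and of Agtpbp1 from 0.11 to 0.05, with adjusted p of 1.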
